A study of Mus musculus with 10 samples.

Results

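The subject here is a set of 9 mouse genes known from naive T cells, where they govern homing to lymph nodes and the resting state: Klf2, S1pr1, Ccr7, Lef1, Tcf7, Foxo1, Satb1, Bach2 and Txnip. They were taken by symbol from the 49671 gene rows of a raw count table, and each matched exactly 1 row. Their expression was compared in TH2 cells, the helper T cells that make IL-4, IL-5 and IL-13, taken from cultures of wild-type C57BL/6 mice on day 5 of polarization; the labels do not name the starting cells. The 3 regular libraries came from mice fed standard chow with 400 IU of vitamin D3 per kg. The 7 deficient libraries came from mice bred and kept without UV light on chow free of vitamin D. The labels describe the other conditions of both groups as alike; all animals were second-generation offspring, with no further treatment. Batch 1 held 2 regular and 5 deficient libraries, and batch 2 held 1 regular and 2 deficient libraries. Nothing in the labels ties each library to a mouse of its own, so the p-values measure the spread between these libraries, which may be technical. The question was how far genes of the naive state differ between TH2 cells of the 2 diets. The series measured no naive cells, so loss or persistence of these genes during polarization could not be compared.

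A naive T cell circulates between blood and lymph nodes without dividing. The chemokine receptor CCR7 brings it into the node, and the sphingosine-1-phosphate receptor S1PR1 lets it leave. The transcription factor FOXO1 holds this state and switches on KLF2, which in turn drives S1pr1. Signals from the antigen receptor through PI3K and AKT move FOXO1 out of the nucleus, and the homing genes then fall. TCF1 (gene Tcf7) and LEF1 keep T cells able to renew, SATB1 organises T cell chromatin, BACH2 represses effector genes, and TXNIP limits glucose uptake and thioredoxin.

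Libraries held between 5800698 and 13433276 counts, and the 3 regular libraries were the shallowest. T cell genes were present throughout: 11 T cell identity markers summed to 3270 to 3302 CPM (read counts relative to the library total) in regular and 2579 to 2869 CPM in deficient libraries (1 higher and 6 lower). The 10 TH2 markers summed to 564 to 630 CPM and 449 to 662 CPM (2 higher and 6 lower). Similar sums did not mean similar single markers. Cd4 fell from 723 ± 13.8 to 335 ± 30.9 CPM (SD, n = 3 and 7), a log2 change of -1.20. Cd3e (-1.04) and Trac (-0.49) also fell, and Cd247 (0.31) rose. Among the TH2 markers Epas1 (-2.67), Ccr4 (-1.07) and Gata3 (-0.84) fell, and Il13 (1.21) and Il5 (0.84) rose. Summed markers of CD8 and cytotoxic cells and of myeloid cells did not overlap between the groups, whereas summed B cell and endothelial markers did. The 12 CD8 and cytotoxic markers summed to 99.9 to 202 CPM in regular libraries and 688 to 1962 CPM in deficient ones (9 of 11 tested were higher and 0 lower by edgeR, DESeq2 and limma-voom, 0 also at an unadjusted p under 0.05, with 5 higher within batch 1; 3 of the 9 reached the filter on low counts through the deficient libraries alone). The 12 B cell markers summed to 23.6 to 114 CPM and 77.1 to 370.5 CPM (3 of 11 higher, 1 lower; 1 higher without regular library 2 and 7 without deficient library 5; 2 of the 3 reached the filter through the deficient libraries alone). Deficient libraries 5, 6 and 7 held 331, 325 and 370.5 CPM of them. No other deficient library exceeded 104 CPM, which is below the 114 CPM of regular library 3. B cells also use Klf2, S1pr1, Ccr7, Foxo1 and Bach2. The 12 myeloid and dendritic markers summed to 8.02 to 13.8 CPM and 17.8 to 34.5 CPM (4 of 6 tested higher, 0 lower by edgeR, also at an unadjusted p under 0.05; 2 higher without deficient library 3 or 6), with Siglech at 0 in the deficient libraries. Of those 4 genes, 3 (Adgre1, Fcer1g and Tyrobp) entered the test through the deficient libraries alone, where they were high, so the count describes the filter as well as the genes. The 8 endothelial and stromal markers summed to 29.5 to 35.1 CPM and 16.9 to 29.9 CPM, of which Pecam1, a gene of naive T cells too, gave 30.1 and 20.8 CPM on average (0 higher and 1 lower of 1 tested), with Lyve1 at 0 in the regular libraries. The part of these cells in the results was not tested. In bulk samples, fewer cells of a type and less RNA per cell cannot be told apart. The background for these marker counts is all genes tested, of which 29.4% were higher and 28.6% lower by edgeR.

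Of the 9 genes, 2 were higher and 7 lower in deficient cells by edgeR's quasi-likelihood test with batch as a term, at a Benjamini-Hochberg adjusted p below 0.05 over 13699 genes. S1pr1 and Txnip rose, and Klf2, Ccr7, Foxo1, Satb1, Bach2, Tcf7 and Lef1 fell. Among all genes tested, 58.0% passed in either direction, 29.4% upward and 28.6% downward, so a pass was common in this comparison. All 9 passed the filter on low counts, which asked for 0.952 CPM in 2 libraries, and each reached it within the deficient libraries as well as within the regular ones. The change was at least 2-fold for 5 of the 9 genes, against 10.3% of all genes upward and 8.71% downward. CPM values of the 2 groups did not overlap for 8 of the 9, the exception being Bach2; over all genes tested, 50.8% did not overlap, 29.4% with the deficient libraries higher and 21.4% with them lower.

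**Figure D1:**
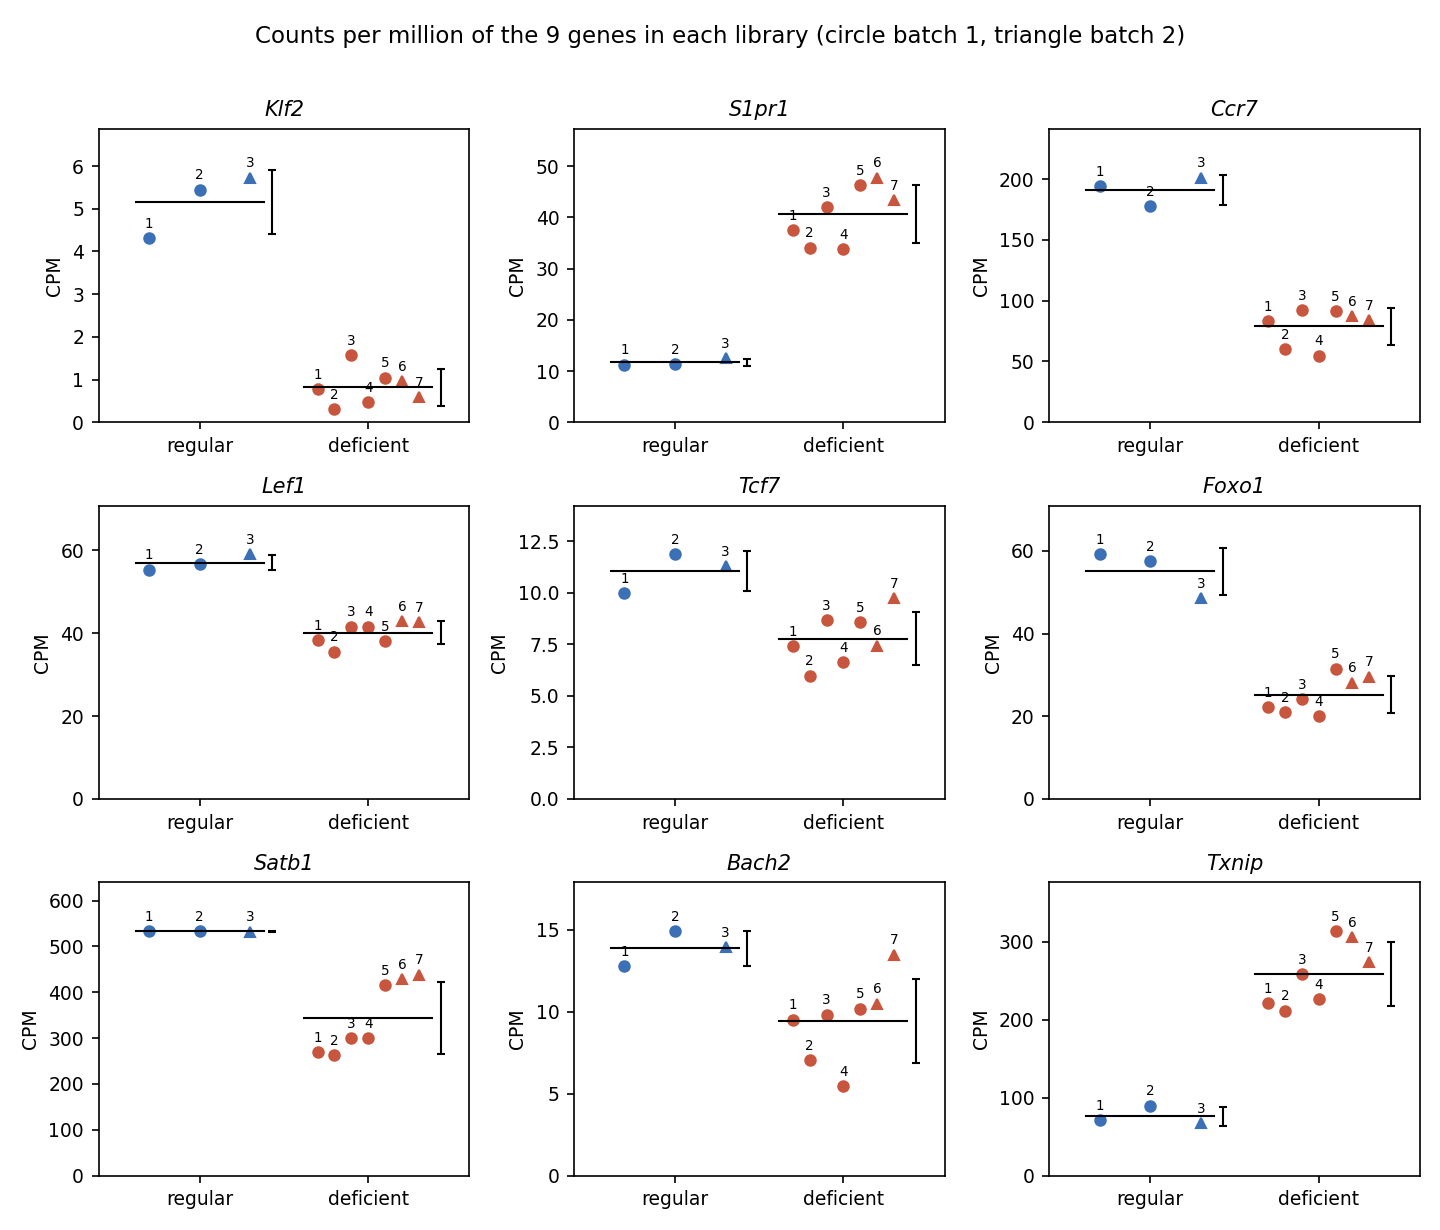
CPM of the 9 genes in each library (y axis from 0), regular libraries in blue and deficient libraries in red, with the library number above each point, circles for batch 1 and triangles for batch 2. Lines are group means and bars are the SD (n = 3 and 7). S1pr1 and Txnip lie higher in every deficient library, and Bach2 is the gene whose groups overlap.

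The receptors for entry and exit moved in opposite directions. Ccr7 (ENSMUSG00000037944, chromosome 11, 99144196 to 99155077 of GRCm38) encodes the receptor that guides T cells into lymph nodes along CCL19 and CCL21. It read 194, 178 and 201 CPM in regular libraries 1 to 3 and 82.9, 60.0, 92.0, 54.8, 91.2, 87.3 and 84.1 CPM in deficient libraries 1 to 7. Every deficient library lay below every regular one, and libraries 2 and 4 were the lowest. Its log2 fold change was -1.36 (SE 0.164, adjusted p = 7.49e-05, edgeR), a 2.56-fold fall. S1pr1 (ENSMUSG00000045092, chromosome 3, 115710433 to 115715072) encodes the receptor for exit. It read 11.2, 11.4 and 12.5 CPM in the regular libraries and 37.5, 34.1, 42.0, 33.8, 46.3, 47.7 and 43.4 CPM in the deficient ones. Its lowest deficient value was thus well above its highest regular value. The log2 fold change was 1.72 (SE 0.127, adjusted p = 2.49e-08, edgeR), a 3.29-fold rise.

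Of the 19 traffic partners tested out of 22, 3 rose and 7 fell, with a median log2 fold change of 0.03 against 0.02 over all genes tested. These are 15.8% and 36.8% of the tested partners, against 29.4% and 28.6% of all genes. Rising members were Sphk1 (1.94), the kinase that makes sphingosine-1-phosphate, Dock2 (0.52), a guanine nucleotide exchange factor for Rac needed for lymphocyte migration, and Itga4 (0.60), the alpha4 integrin chain. Sphk1 held 7 counts over the regular libraries and entered the test through the deficient libraries alone. It missed the threshold without regular library 1 (1.38, adjusted p = 0.0992) or regular library 3 (1.88, adjusted p = 0.0756), and within batch 1 (1.88, adjusted p = 0.0896, edgeR). Rac2 (-0.74), the haematopoietic Rac GTPase, Gna13 (-0.70), a G protein subunit that curbs migration, and Grk2 (-0.66), the kinase that desensitises S1PR1, fell. Cxcr4, the CXCL12 receptor (picked with its values in view), fell from 16.2 ± 1.37 CPM (SD, n = 3) to 5.34 ± 1.14 CPM (SD, n = 7). S1pr4, a further sphingosine-1-phosphate receptor of lymphocytes, and Cd69, whose protein pulls S1PR1 off the surface (both picked with their values in view), gave -0.19 and 0.08 and did not pass (adjusted p = 0.203 and 0.474, edgeR).

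Klf2 had the largest change of the 9 genes. It is a zinc finger factor of the Krüppel-like family, lies on chromosome 8 (ENSMUSG00000055148, 72319033 to 72321656) and is known as an activator of S1pr1. Its counts were 25, 34 and 37 in the regular libraries and 10, 4, 11, 6, 13, 13 and 5 in the deficient ones. As CPM these were 4.31, 5.45 and 5.73 against 0.773, 0.303, 1.56, 0.469, 1.04, 0.968 and 0.586. The log2 fold change was -2.78 (SE 0.343, adjusted p = 5.75e-06, edgeR), a 6.86-fold fall. No deficient library came near the regular ones, although each rested on few counts. Klf2 therefore fell where S1pr1, a gene it is known to activate, rose. The stretch before the RefSeq start of Klf2 (221 bases of GRCm38.p6, chr8:72318812-72319032, plus strand) is shown because Klf2 changed most; it is the part that also lies before the GENCODE start. Capitals mark a match to CTA and TAG with any 4 bases between them. This is a looser form of the core bound by MEF2 factors, which are known to drive Klf2. The first base of the match lies 118 bases before the RefSeq start.
Klf2: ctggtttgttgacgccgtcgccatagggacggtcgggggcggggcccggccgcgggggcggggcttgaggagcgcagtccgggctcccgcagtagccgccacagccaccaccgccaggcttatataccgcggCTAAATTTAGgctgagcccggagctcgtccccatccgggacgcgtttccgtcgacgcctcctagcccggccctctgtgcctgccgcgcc
A match on either strand occurs in 3.20% of the 32851 RefSeq windows of 250 bases before a start, and this motif was searched after the sequences were seen.

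Foxo1 (ENSMUSG00000044167, chromosome 3, 52268336 to 52353221), the forkhead factor upstream of Klf2, read 59.1, 57.6 and 48.6 CPM in regular libraries. The deficient libraries ran from 20.01 through a median of 24.2 to 31.5 CPM, so the groups did not overlap. The log2 fold change was -1.22 (SE 0.141, adjusted p = 1.04e-05, edgeR), a 2.32-fold fall. Within batch 1 it was -1.39 and within batch 2 it was -0.81. The other FOXO genes differed in direction: Foxo4 fell (-1.10) and Foxo3 rose (0.44).

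Of 15 genes tested out of 16 that Foxo1 or Klf2 are known to control, 2 rose and 9 fell, or 13.3% and 60.0% against 29.4% and 28.6% of all genes. Their median was -0.34 against 0.02 over all genes. The cell cycle inhibitor gene Cdkn1b fell from 208 ± 17.3 to 113 ± 7.66 CPM (SD, n = 3 and 7), a log2 change of -0.97. Sesn1, a brake on mTORC1, fell by 0.72 and the inhibitory receptor gene Ctla4 by 1.55. Bcl2, the survival gene, rose by 0.72 and Gadd45a, a stress gene, by 0.57. Il7r, the receptor for the survival cytokine IL-7 and a direct target of FOXO1, read 158, 148 and 159 CPM in regular libraries and 93.96, 92.2, 87.6, 100.5, 152, 137 and 125 CPM in the deficient ones. Deficient library 5 lay inside the regular range and the other deficient libraries below it. Il7r passed at -0.54 (adjusted p = 0.0142, edgeR) and missed the threshold without regular library 1 (-0.46, adjusted p = 0.0699). Pik3ip1, an inhibitor of PI3K (picked with its values in view), fell from 51.2 ± 2.42 to 9.40 ± 3.89 CPM.

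The kinase pathway that excludes FOXO1 from the nucleus went both ways. Of its 19 genes, all tested, 6 rose and 9 fell, or 31.6% and 47.4% against 29.4% and 28.6% of all genes, with a median of -0.12 against 0.02. Mdm2 (1.16), a ubiquitin ligase, and Rheb (0.35), the GTPase that activates mTORC1, rose. Pdpk1 (-0.50), the kinase that activates AKT, Rictor (-0.46), a subunit of mTORC2, and Pik3cg (-0.65), a PI3K catalytic subunit, fell. With scaling by total counts, 5 genes of the pathway fell instead of 9. RNA levels say nothing of the activity of these kinases or of where FOXO1 lay in the cell.

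Lef1 and Tcf7 encode the paired HMG-box factors LEF1 and TCF1, which bind the same DNA motif and work beside beta-catenin and Groucho corepressors. Lef1 (ENSMUSG00000027985, chromosome 3, 131110471 to 131224356) read 55.3, 56.6 and 59.0 CPM in regular libraries and from 35.5 through 41.5 to 42.8 CPM in deficient ones. Tcf7 (ENSMUSG00000000782, chromosome 11, 52252371 to 52283014) read 9.999, 11.9 and 11.3 CPM in regular libraries and from 5.99 through 7.44 to 9.73 CPM in deficient ones. Neither gene's groups overlapped, though the gap for Tcf7 was small. The log2 fold changes were close, -0.59 for Lef1 (SE 0.0685, adjusted p = 3.08e-06, edgeR) and -0.60 for Tcf7 (SE 0.159, adjusted p = 0.00484, edgeR). Within batch 2, where 46.9% of all genes passed against 48.4% within batch 1, Tcf7 missed the threshold (-0.48, adjusted p = 0.120, edgeR). An annotated antisense gene covers 13.7% of the Lef1 exon bases; the strand setting of the counting is not given, so reads there cannot be assigned with certainty.

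Of 17 partners of these factors tested out of 20, 2 rose and 8 fell, or 11.8% and 47.1% against 29.4% and 28.6% of all genes, with a median of -0.18 against 0.02. Ets1 (-0.87), a lymphoid ETS factor, Id3 (-0.83), an inhibitor of E proteins, and Ctnnb1 (-0.28), the gene of beta-catenin, fell. Axin2, a readout of beta-catenin with LEF1 or TCF1 (picked with its values in view), fell by 0.91. Gsk3b, the kinase that marks beta-catenin for destruction, rose by 0.50, and Pygo2, a coactivator of beta-catenin, by 0.33. Pygo2 missed the threshold without regular library 1 (0.23, adjusted p = 0.194), regular library 3 (0.30, adjusted p = 0.132) or deficient library 7 (0.32, adjusted p = 0.0572, edgeR). It also missed it by limma-voom (0.33, adjusted p = 0.0574) and within batch 1 (0.30, adjusted p = 0.148, edgeR). The count of falling partners was 5 without any 1 of the regular libraries, 5 with scaling by total counts, and 4 within either batch; rising partners numbered 1 without regular library 1 or deficient library 7.

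Satb1 was the most abundant of the 9 genes by CPM. It also had the lowest coefficient of variation among regular libraries, 0.131%, although counting error alone gives 1.75%. It encodes a chromatin organiser of T cells (ENSMUSG00000023927, chromosome 17, 51736187 to 51833290). It read 533, 533 and 532 CPM in the regular libraries and 270, 262, 300.3, 299.9, 415, 429 and 438 CPM in deficient libraries 1 to 7. All deficient values were below the regular ones, but libraries 5 to 7 stood apart from libraries 1 to 4 by more than 100 CPM. The log2 fold change was -0.72 (SE 0.144, adjusted p = 0.00201, edgeR). Within batch 1 it was -0.88, within batch 2 it was -0.35, and without deficient libraries 5 to 7 it was -1.01, passing each time. All 9 genes passed in that last fit, as did 56.4% of all genes.

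Bach2 (ENSMUSG00000040270, chromosome 4, 32238804 to 32586108), a basic leucine zipper repressor, had the weakest evidence of the 9. It read 12.8, 14.9 and 13.9 CPM in regular libraries and 9.50, 7.05, 9.82, 5.47, 10.2, 10.5 and 13.5 CPM in deficient ones. Deficient library 7 lay inside the regular range. The log2 fold change was -0.65 (SE 0.199, adjusted p = 0.0118, edgeR). It missed the threshold within batch 2 (-0.30, adjusted p = 0.291) and without regular library 2 (-0.52, adjusted p = 0.0875), a fit in which 48.6% of all genes passed. Of its 15 partners, rivals and targets, 6 rose and 6 fell, or 40.0% each against 29.4% and 28.6% of all genes, with a median of 0.01 against 0.02. Hmox1 (1.51), the haem oxygenase gene that BACH factors repress, Mafk (0.80), a small MAF partner, and Nfe2l2 (0.60), which encodes NRF2, rose. Jun (-1.41), an AP-1 subunit, and the corepressor gene Ncor1 (-0.64) fell. Prdm1, which encodes BLIMP1 and is the textbook target that BACH2 represses, held 3, 0 and 3 counts in the regular libraries and 6 to 28 in the deficient ones, and it entered the test through the latter alone. It passed at 1.97 (adjusted p = 0.0104, edgeR) but not without regular library 2 (1.27, adjusted p = 0.0704). The count of rising partners was 3 without regular library 2 and 3 within batch 2.

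Txnip (ENSMUSG00000038393, chromosome 3, 96557957 to 96561883) encodes an arrestin-family protein that binds thioredoxin and removes glucose transporters from the surface. It read 70.9, 89.5 and 67.3 CPM in regular libraries and 221, 212, 258, 226, 313, 305 and 274 CPM in deficient ones. The groups were far apart, and libraries 5 to 7 were again the highest. The log2 fold change was 1.68 (SE 0.158, adjusted p = 7.16e-06, edgeR), a 3.21-fold rise. It was 1.53 within batch 1 and 2.05 within batch 2. An annotated antisense gene with 52 counts over all libraries covers 19.4% of the Txnip exon bases, against 22114 counts of Txnip. The 250 bases before its start (GRCm38.p6, chr3:96557707-96557956, plus strand) are shown because Txnip rose with its relative Arrdc4. Capitals mark a FOXO motif match (GTAAACA, first base 121 bases before the start) and a pair of E-box-like elements (CACGNG and CACGNG 5 bases apart, first base 85 bases before the start), the arrangement of a carbohydrate response element, which the glucose sensor MondoA with its partner MLX binds.
Txnip: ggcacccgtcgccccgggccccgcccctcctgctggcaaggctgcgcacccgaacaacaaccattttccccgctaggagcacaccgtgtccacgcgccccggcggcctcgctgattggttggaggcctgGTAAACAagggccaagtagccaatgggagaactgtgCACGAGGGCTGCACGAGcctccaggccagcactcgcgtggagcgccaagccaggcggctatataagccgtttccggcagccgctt
The FOXO motif, GTAAACA or TGTTTAC, occurs in 3.17% of the RefSeq windows and the paired elements in 0.0457%, on either strand; the second was searched after the sequence was seen. The window of Arrdc4 held 0 matches to the paired elements. Over the 15 windows of 7 of the 9 genes, the FOXO motif was in 1 (Txnip), the TCF motif in 2 (of Lef1 and Bach2), the E-box in 1 (of Lef1) and a vitamin D receptor half-site in 2 (of Tcf7 and Satb1); over all RefSeq windows the TCF motif is in 13.8%, the E-box in 6.02% and the half-site in 21.5%. The CACCC box was in 12 of the 15 and is in 52.0% of all windows. It had 1 match for Klf2 beyond its printed stretch and 2 for Txnip that are not capitalised. Some windows of Lef1 overlap and hold the same matches, so the 15 are not independent. By gene, the box was found for 5 of the 7.

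Arrdc4, the arrestin relative that MondoA controls together with Txnip, read 5.34, 4.49 and 6.96 CPM in regular libraries and from 19.9 to 40.6 CPM in deficient ones, a log2 change of 2.43 (SE 0.232, adjusted p = 2.44e-06, edgeR). Of 13 genes of the Txnip network tested out of 14, 5 rose and 2 fell, or 38.5% and 15.4% against 29.4% and 28.6% of all genes, with a median of 0.07 against 0.02. Txnrd1, the cytosolic thioredoxin reductase, rose by 1.05, Txn1, thioredoxin itself, rose by 0.19, Txnrd2, the mitochondrial reductase, fell by 0.27, and Slc2a3, which encodes the glucose transporter GLUT3, fell from 56.6 ± 1.94 to 32.4 ± 9.11 CPM. Slc2a1, the gene of the glucose transporter GLUT1 (picked with its values in view), went the other way. It rose from 19.3 ± 4.26 to 25.2 ± 1.67 CPM (0.32, adjusted p = 0.0303, edgeR). Rising genes numbered 3 within batch 1 and 3 without regular library 3, and 1 gene fell without regular library 1 or deficient library 7. Without regular library 3, Txn1 missed the threshold (0.16, adjusted p = 0.0586, edgeR). Txnrd2 missed it without regular library 1 (-0.20, adjusted p = 0.195), regular library 3 (-0.27, adjusted p = 0.0887) or deficient library 7 (-0.24, adjusted p = 0.0662, edgeR). Within batch 1 both missed it (0.17 and -0.27, adjusted p = 0.0824 and 0.0954, edgeR). Txnrd2 also missed it by DESeq2 (-0.27, adjusted p = 0.0593) and with scaling by total counts (-0.19, adjusted p = 0.126, edgeR). Mlxip, the gene of MondoA, and Mlx (both picked with their values in view) gave -0.26 and 0.02 and did not pass.

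**Figure D2:**
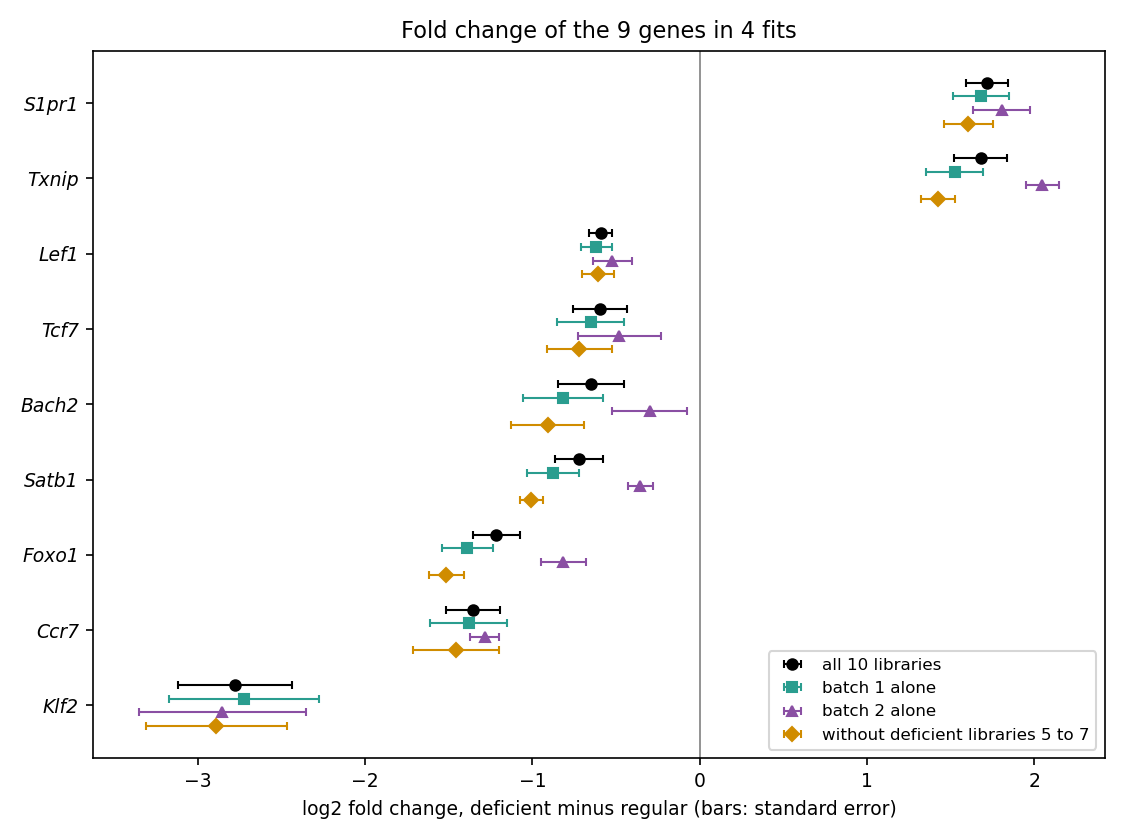
Log2 fold change of the 9 genes, deficient minus regular (x axis), with standard errors, fitted on all 10 libraries, on each batch alone, and without deficient libraries 5 to 7. The sign is the same in the 4 fits for each gene, and Bach2 and Satb1 lie nearest to 0 in batch 2, at -0.30 and -0.35.

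Other genes of naive cells fell more often than they rose. Of 20 further surface and marker genes of naive CD4+ T cells, all tested, 15 fell and 0 rose by edgeR, with a median of -0.73 against 0.02; 75.0% fell, against 28.6% of all genes. The count of rising genes was also 0 by DESeq2, by limma-voom and at an unadjusted p under 0.05; it was 1 within batch 2 and without deficient library 5, where the gene was Ly6c1, which had 0 counts in the regular libraries. Nsg2, which entered the test through the regular libraries alone, fell from 4.96 ± 0.401 to 0.802 ± 0.151 CPM, Dapl1 from 67.9 ± 6.54 to 19.6 ± 5.01 CPM, and the co-stimulatory receptor gene Cd28 from 514 ± 37.8 to 289 ± 19.99 CPM (SD, n = 3 and 7). Ablim1, an actin-binding protein gene (picked with its values in view), fell by 1.70. Of 20 quiescence factors tested out of 21, 12 fell and 3 rose, or 60.0% and 15.0% against 28.6% and 29.4% of all genes, with a median of -0.37 against 0.02. Beside Cdkn1b and Foxo4, Peli1, a ubiquitin ligase that restrains T cell activation, fell by 0.78, and Cblb, a ubiquitin ligase that sets the activation threshold (picked with its values in view), by 1.48. Foxp1 (0.69), a forkhead factor that keeps naive T cells resting, and the antiproliferative gene Btg2 (0.52) rose, as did Foxo3.

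Of 20 genes that increase in effector cells, all tested, 9 rose and 2 fell, where 29.4% of all genes rose and 28.6% fell. Of the 9 rising genes, 4 (Tbx21, Cxcr3, Prdm1 and Klrg1) reached the filter on low counts through the deficient libraries alone, where they were high. The filter thus favoured a rise among them, and the count is given as a description. Tbx21, the TH1 master regulator, rose from 0.822 ± 0.333 to 38.03 ± 4.28 CPM, Bhlhe40, a cytokine regulator, by 0.82, and the chemokine receptor gene Cxcr3 from 0.214 ± 0.0829 to 3.23 ± 0.993 CPM (4 counts over the 3 regular libraries). Ccr4 (-1.07), a TH2 chemokine receptor gene, and Cd44 (-0.56), an adhesion molecule gene of activated cells, fell. Without deficient libraries 5 to 7, 4 genes fell in place of 2.

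**Figure D3:**
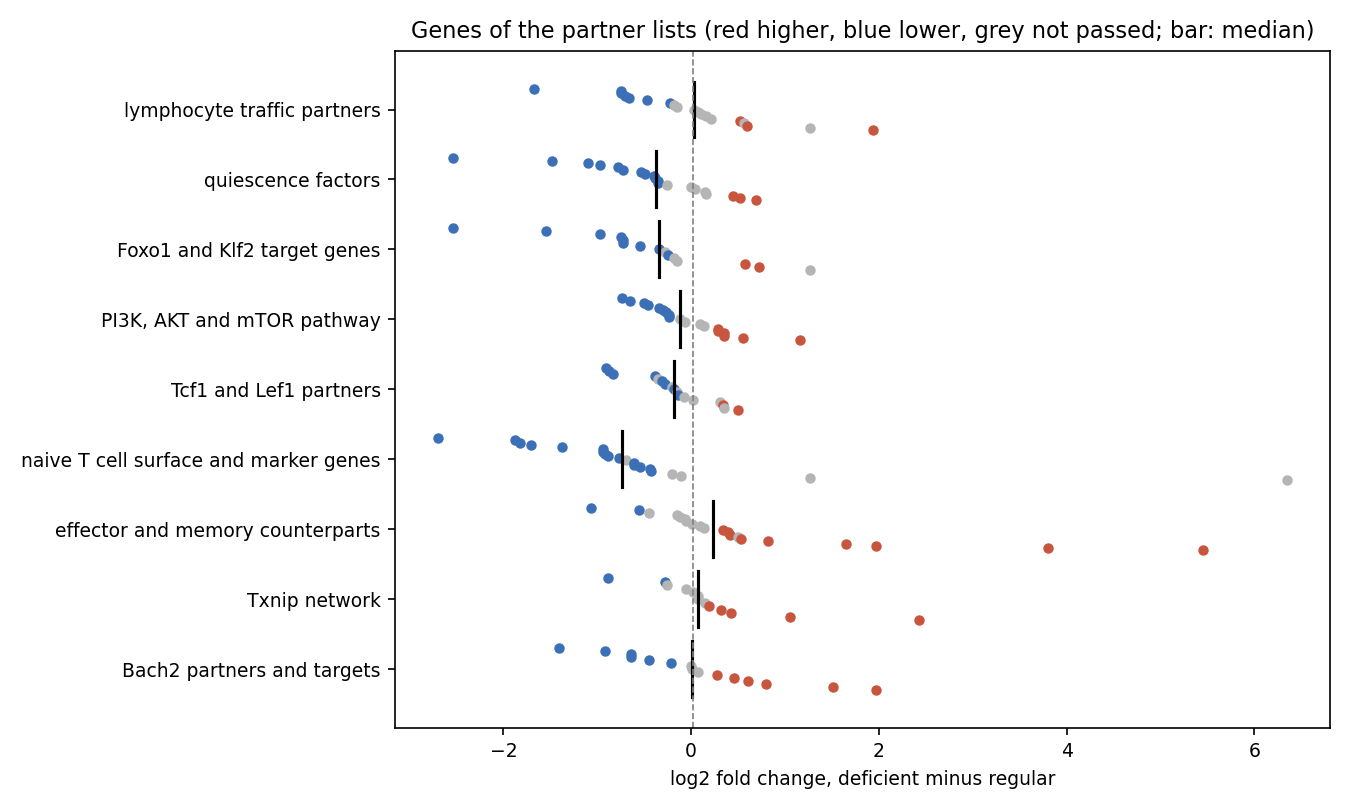
Log2 fold change (x axis) of each tested gene in 9 partner lists (rows), red for higher, blue for lower and grey for not passed, with the list median as a bar and the median of all genes tested (0.02) as a dashed line. The naive marker list has its median at -0.73; its point at the far right is Ly6c1, whose fitted value is no measure of size because the regular libraries held 0 counts.

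**Figure D4:**
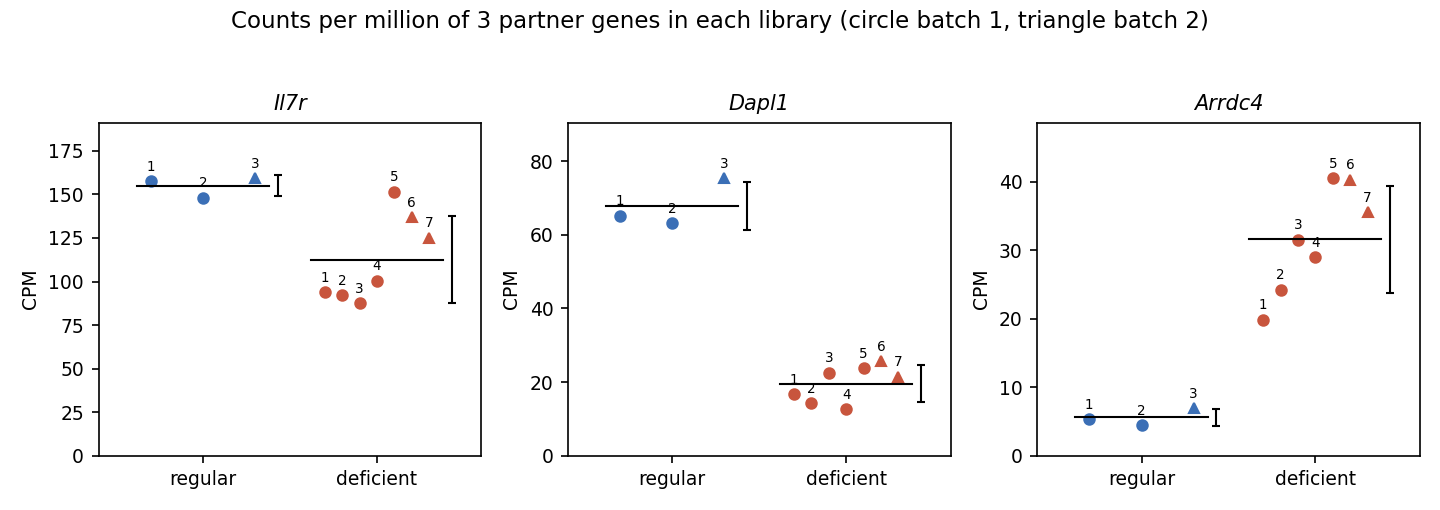
CPM (y axis from 0) of Il7r, Dapl1 and Arrdc4 in each library, with library numbers, group means as lines and the SD as bars (n = 3 and 7). Il7r is at 87.6 to 100.5 CPM in deficient libraries 1 to 4 and at 125 to 152 CPM in libraries 5 to 7, and Arrdc4 is at 19.9 to 40.6 CPM in deficient libraries.

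The deficient libraries varied among themselves. The coefficient of variation over the 7 libraries was 51.9% for Klf2, 27.3% for Bach2, 22.8% for Satb1, 19.2% for Ccr7, 17.9% for Foxo1, 16.6% for Tcf7, 15.9% for Txnip, 13.9% for S1pr1 and 6.98% for Lef1. Counting error alone gives 37.1% for Klf2, 10.1% for Bach2 and 10.9% for Tcf7, but 1.67% for Satb1, 3.44% for Ccr7 and 1.90% for Txnip, so the spread of Satb1, Ccr7 and Txnip was many times the counting error. Over the 3 regular libraries the coefficient was 15.7% for Txnip, 14.5% for Klf2 and at most 10.3% for the others. For Klf2, S1pr1, Lef1, Tcf7, Satb1 and Bach2 it lay below the counting error there, which was 17.9% for Klf2.

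Deficient libraries 5, 6 and 7 were the 3 highest of the 7 for 5 of the 9 genes, S1pr1, Foxo1, Satb1, Bach2 and Txnip, and the 3 lowest for none. Over all genes tested they were the 3 highest for 14.3% and the 3 lowest for 13.4%. For Foxo1, Satb1 and Bach2 this order brought those libraries nearer to the regular ones, whereas for S1pr1 and Txnip it took them farther away. Libraries 6 and 7 belong to batch 2 and library 5 to batch 1, and these were also the libraries with the highest B cell, cytotoxic and myeloid sums (myeloid 32.1 to 34.5 CPM against 17.8 to 21.2 CPM in libraries 1 to 4); the part of those cells was not tested. Klf2, Ccr7, Lef1 and Tcf7 did not follow this order. Among deficient libraries 1 to 4, all of batch 1, libraries 1 and 3 were the 2 highest for 6 of the 9 genes, Klf2, S1pr1, Ccr7, Tcf7, Foxo1 and Bach2, against 16.3% of all genes; they were the 2 lowest for 25.7% of all genes. They are the libraries that hold Xist, the RNA of the inactive X chromosome, at 657 and 733 CPM against at most 0.345 CPM in the rest; the part of sex was not tested. Leaving out both libraries ended no call among the 9 genes.

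**Figure D5:**
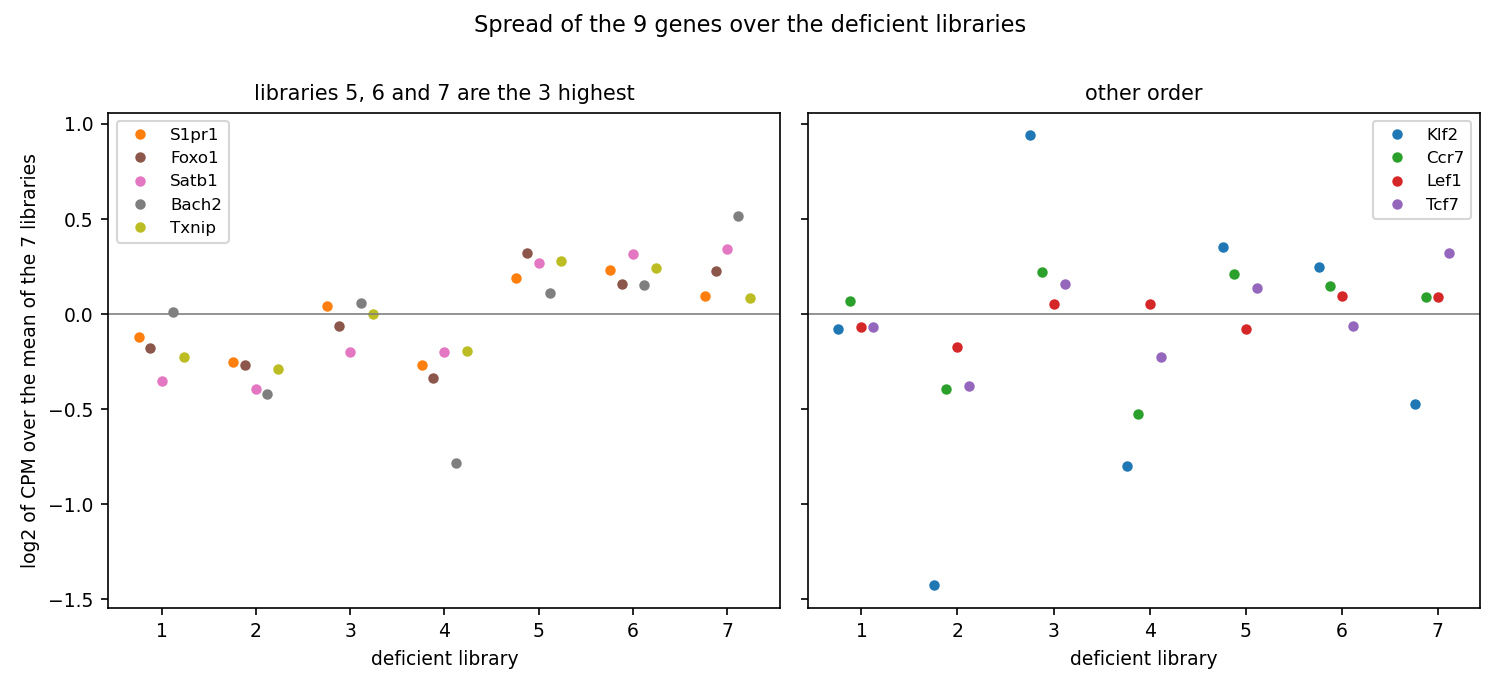
Log2 of each gene's CPM over its mean across the 7 deficient libraries (y axis), by library (x axis), for the 5 genes with libraries 5, 6 and 7 highest (left) and the other 4 genes (right). Lef1 varies least, with a coefficient of variation of 6.98%, and Klf2 most, with 51.9% on 4 to 13 counts per library.

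Levels of different genes were compared as CPM per kb of annotated exon. In regular cells the order was Ccr7 (96.6 ± 6.09), Satb1 (28.0 ± 0.0367), Txnip (24.3 ± 3.81), Lef1 (6.48 ± 0.209), Foxo1 (6.36 ± 0.656), Tcf7 (4.21 ± 0.364), S1pr1 (3.84 ± 0.237), Klf2 (2.79 ± 0.406) and Bach2 (1.39 ± 0.108), all in CPM per kb (SD, n = 3). Satb1 and Txnip, Lef1 and Foxo1, and Tcf7 and S1pr1 had overlapping ranges of mean ± SD. In deficient cells Txnip came first (82.8 ± 13.1), followed by Ccr7 (39.9 ± 7.65), Satb1 (18.1 ± 4.13), S1pr1 (13.4 ± 1.85), Lef1 (4.56 ± 0.318), Tcf7 (2.97 ± 0.492), Foxo1 (2.91 ± 0.521), Bach2 (0.949 ± 0.259) and Klf2 (0.441 ± 0.229), all in CPM per kb (SD, n = 7). Satb1 and S1pr1, and Tcf7 and Foxo1, had overlapping ranges there. The exon length joins all annotated transcripts of a gene, and at 19027 bases for Satb1 it may understate that gene's level.

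The genes closest to each of the 9 in pattern were found by the root mean square difference of log2(CPM + 1) profiles over the 10 libraries, each centred on its own mean, among 9420 protein-coding genes of at least 5 CPM on average. The profiles share the libraries and hold the diet difference, so the measure is a description. S1pr1 and Txnip were near each other (0.13 log2 units), and both were near Smo, the Hedgehog signal transducer gene (0.12 and 0.13). Exph5 was closest to S1pr1 (0.12). Lef1 was closest to the corepressor gene Rcor3 and the chromatin remodeller gene Chd6 (both 0.05), Satb1 to the necroptosis kinase gene Ripk3 (0.07), Ccr7 to the phosphodiesterase gene Pde4d (0.12), and Foxo1 to Med12l and the Ras GTPase activator gene Rasa3 (0.11 and 0.12). Klf2 was closest to Eml1 and to the naive marker Dapl1 (both 0.21). The 1 added before the log shrinks changes of genes at few CPM, such as Klf2 and Exph5. Their nearness therefore does not mean equal fold changes. The fitted log2 fold change was -2.78 for Klf2 against -2.09 for Eml1 and -1.88 for Dapl1. It was 1.72 for S1pr1 against 2.06 for Exph5. Among the 9 genes themselves, the next closest pairs were Lef1 and Tcf7 (0.15) and Tcf7 and Bach2 (0.18), and Ccr7 with Foxo1 came after them (0.20).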

How the data were processed

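Total RNA of TH2 cultures was sequenced from strand-keeping, globin-depleted libraries, per the labels' protocols. The authors deposited raw counts by Ensembl gene ID. The submitters' processing notes name STAR 2.7.10a, HTSeq 0.13.5 and the build GRCm38. How strand was set in counting, and which annotation release was used, is not given in the sources used here. Of 49671 IDs, 49412 matched GENCODE M21, and the rest held 0.0226% of counts. Libraries were grouped by the treatment label; replicate numbers follow accession order.

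Counts were fitted in R 4.3.3 with edgeR 4.0.16 (filterByExpr with a minimum count of 10, TMM scaling, robust quasi-likelihood F test, terms for diet and batch, Benjamini-Hochberg adjustment over 13699 genes). Standard errors are the log2 fold change over the root of F. CPM uses plain library totals. A two-sided exact permutation test of mean CPM over the 120 splits gave p = 0.00833, the smallest possible, for 8 of the 9 genes and p = 0.0417 for Bach2. With labels exchanged within batches (63 splits, added after the data were seen), exact p was 0.0159, the smallest possible, for each of the 9. All replicate pairs differed beyond sampling noise (chi-square per gene 2.82 to 49.9). On simulated counts for this comparison (13699 genes), the test found 37 of 67 genes with a 1.5-fold change, 56 of 67 with a 2-fold change and 64 of 66 with a 4-fold change. Of its 164 calls, 7 were false. All other genes were left unchanged there, whereas 58.0% of all genes passed in the measured libraries. Every simulated gene also had the same coefficient of variation beyond counting error, 12.7%, with no batch effect and no groups among the deficient libraries. In the measured deficient libraries Satb1 varied by 22.8%, with a counting error of 1.67%. Recovery and false calls with that many changed genes, or with the measured spread of each gene, were not tested.

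The 9 genes and the partner and marker lists were chosen with earlier results of these data known. Named partner genes are up to 3 per direction of smallest adjusted p, plus Il7r, Prdm1 and Arrdc4; others are marked as picked with their values in view. Some genes of the lists are counted but not reported here by name. Tle5 is listed as Aes in GENCODE M21. Promoter sequences are RefSeq's (GRCm38.p6), with windows for 7 of the 9 genes. The KLF CACCC box, FOXO, TCF (CTTTGA), E-box (CACGTG) and vitamin D receptor half-site (AGGTCA or GGTTCA) motifs were searched on both strands. Alternatives were other scalings, other filters, DESeq2 1.42.0, limma-voom 3.58.1, no robust estimation, no batch term, each batch alone and each library left out; those without deficient libraries 5 to 7, without the Xist libraries and with thinned counts were added after the data were seen.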

Additional observations from a re-analysis of the deposited data

Results flagged for a closer look

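Among 80 sets of 7 deficient values examined, covering the 9 genes, the named partner and marker genes and the summed markers, 2 held a library far from the rest, where chance gives about 1 in 20. The lowest deficient library for Pdpk1, the kinase that activates AKT, read 152 CPM against a group range up to 185 CPM. The highest deficient library for Zbtb46, a dendritic cell factor, read 16.0 CPM against a lowest value of 10.4 CPM. None of the 9 genes held such a library.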

How the results depend on the processing

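No paired analysis was possible because the labels number no replicates. Over 24 alternatives the 2 rising genes passed in each, and the 7 falling genes kept their sign. The exceptions in passing were Tcf7 within batch 2 (-0.48), and Bach2 within batch 2 (-0.30) and without regular library 2 (-0.52; from -0.82 to -0.52 with 1 library left out). Where batch 2 stood alone, the fit lent its 1 regular library the spread of the 2 deficient libraries, and 5 of the 7 falling genes passed, against 46.9% of all genes in either direction there and 48.4% in batch 1, where all 9 passed. Scaling by total counts raised the fold change of all genes by a median of 0.09 and dropping the filter by 0.11 on the log2 scale, without turning any of the 9. Over these settings 23.1% to 65.5% of all genes passed; genes higher numbered 3059 to 4793 and lower 3038 to 3989. Of 720 counts over the lists, 72 moved by over 1.5 times. Klf2 and Prdm1 are limited by depth, at 4 to 37 and 0 to 28 counts per library.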
